A study of Homo sapiens with 4 samples.

Results

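Epithelial-mesenchymal transition, cell adhesion and invasion were described here through 41 genes in HCT116 cells, a line long kept in culture that was derived from a human colon carcinoma. All 41 were found by symbol in the authors' deposited ratio table, which names 20283 genes, and they carried 113 probe sets there. They were grouped by role into 10 epithelial junction genes, 11 mesenchymal genes, 11 genes for integrins, laminins and CD44, and 9 protease genes. The protease group also holds the inhibitors TIMP1 and TIMP2 and the urokinase receptor PLAUR, which are not proteases. Expression levels on all arrays were given for 32 of the 41 genes, and the other 9 had ratios only.

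The 4 transfections were measured with 1 array each, all in HCT116. The vector cells received the plasmid pcDNA3.1, and the overexpression cells received pcDNA3.1-pri-miR663a, which carries the primary transcript of the microRNA miR663a. The remaining cells received a single-stranded RNA, either a scrambled control or an inhibitor of miR663a. The stated aim was to find genes that overexpression lowers and the inhibitor raises, as candidate targets. No dose or time after transfection is given in the labels. Groups were taken from the genotype labels, and the header of the authors' deposited ratio table runs the same way. The titles of both RNA arrays read the other way round, which would turn every inhibitor ratio. No array was repeated, so a difference between arrays has no spread to be set against, and no test or p-value is given.

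Epithelial cells are joined by adherens junctions built on E-cadherin, by tight junctions of claudins and occludin, and by desmosomes. In the epithelial-mesenchymal transition the factors SNAI1, SNAI2, TWIST1, ZEB1 and ZEB2 repress junction genes, and vimentin, fibronectin and N-cadherin are gained. Integrins bind the cells to laminin and fibronectin, and matrix metalloproteinases and the urokinase system cut the matrix that invading cells cross.

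The manipulated microRNA is shown first, since its seed defines the sites that it can pair with. The RefSeq sequence (GRCh38.p14, chr20:26208243-26208264, minus strand) is printed 5′ to 3′ with the seed, bases 2 to 8, in capitals.
hsa-miR-663a: aGGCGGGGcgccgcgggaccgc
Of its 22 bases, 90.91% are G or C. Untranslated regions of the 41 genes were not used here, so seed sites were not searched.

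Repressors of the SNAI and ZEB families bind the E-box CAGGTG, so this motif was searched on both strands (CAGGTG or CACCTG) in the 250 bases before the most upstream RefSeq start of each gene. A promoter was held in the RefSeq table for 31 of the 41 genes. A gene not named for a motif therefore either held no match or was not searched, and this applies to CDH1. The motif was found in 3 of 9 junction genes, OCLN, TJP1 and DSP, in 2 of 8 mesenchymal genes, ZEB1 and S100A4, in 4 of 9 integrin and laminin genes, ITGA6, ITGB6, LAMA3 and LAMB3, and in 0 of 5 protease genes. Across all 27305 genes of the table, 17.5% held it. S100A4 is a mesenchymal gene that was bright on all 4 arrays and higher on both RNA arrays than on both plasmid arrays. The junction promoters with a match and that of S100A4 are printed 5′ to 3′ with each match in capitals (RefSeq, GRCh38.p14). They are chr5:69492297-69492546 (plus strand) for OCLN, chr15:29969050-29969299 (minus strand) for TJP1, chr6:7541421-7541670 (plus strand) for DSP and chr1:153545807-153546056 (minus strand) for S100A4.
OCLN: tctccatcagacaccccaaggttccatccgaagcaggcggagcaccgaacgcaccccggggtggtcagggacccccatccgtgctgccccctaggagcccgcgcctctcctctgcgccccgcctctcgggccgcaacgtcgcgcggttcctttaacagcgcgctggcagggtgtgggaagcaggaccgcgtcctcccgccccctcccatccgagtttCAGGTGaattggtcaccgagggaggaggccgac
TJP1: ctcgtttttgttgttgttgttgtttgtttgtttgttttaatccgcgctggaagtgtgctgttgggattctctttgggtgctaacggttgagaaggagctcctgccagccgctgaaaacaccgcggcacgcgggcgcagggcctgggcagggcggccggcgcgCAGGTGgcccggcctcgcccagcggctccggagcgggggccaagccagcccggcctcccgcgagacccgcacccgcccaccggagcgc
DSP: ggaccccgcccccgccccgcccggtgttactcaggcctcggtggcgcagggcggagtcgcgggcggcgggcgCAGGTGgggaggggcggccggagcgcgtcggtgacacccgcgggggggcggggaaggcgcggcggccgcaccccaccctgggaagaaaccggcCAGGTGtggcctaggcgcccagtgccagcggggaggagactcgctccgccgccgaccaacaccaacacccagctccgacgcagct
S100A4: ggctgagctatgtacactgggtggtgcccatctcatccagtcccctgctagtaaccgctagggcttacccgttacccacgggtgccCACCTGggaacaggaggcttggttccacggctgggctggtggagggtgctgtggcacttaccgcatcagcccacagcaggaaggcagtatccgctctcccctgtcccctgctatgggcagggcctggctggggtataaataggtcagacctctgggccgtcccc
The match begins 33 bases before the start in OCLN, 88 in TJP1, 164 in S100A4, and 178 and 85 in DSP. The match is a run of letters and shows no binding. The GC box GGGCGG, the motif of SP1 (GGGCGG or CCGCCC), was found in 21 of the 31 promoters, 8 of 9 for junction, 5 of 8 for mesenchymal, 6 of 9 for integrin, laminin and CD44 and 2 of 5 for protease genes, and in 42.2% of all genes. The AP-1 motif TGANTCA was found in the promoters of CLDN4, LAMA3, MMP7 and PLAUR, and in 6.57% of all genes.

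EPCAM, KRT18 and KRT19, markers of the labelled colon epithelial line, were present at high signal. EPCAM lay between 12.26 and 12.63, KRT18 between 12.97 and 13.20 and KRT19 between 12.65 and 12.79 on the log2 scale of the authors' value table, where the median probe set of an array lay between 4.12 and 4.19. Of 7 colon epithelial markers with levels, 6 lay above the array median on all 4 arrays, LGALS4 being the exception. Of the markers of other cell types, 2 of 7 fibroblast, 3 of 7 leukocyte and 1 of 5 endothelial markers lay above it. The leukocyte marker PTPRC, between 2.04 and 2.34, and the endothelial markers CDH5 and KDR, at most 2.98 and 2.62, were below it on every array. Among those above it, COL1A1 lay between 7.48 and 8.05, CD79A between 5.32 and 5.75 and PECAM1 between 4.96 and 5.25. PDGFRB reached 5.28, CD68 5.18 and CD3E 4.70. The colon marker VIL1 lay between 4.59 and 4.77 and CDX1 between 5.45 and 5.96, so levels of colon and other markers overlapped. With overexpression CDX1, an intestinal transcription factor, was at 0.51 as a log2 ratio, EPCAM at -0.29 and VIL1, villin, at 0.12, and with the inhibitor CDX2 was at -0.47, CDX1 at -0.35 and EPCAM at 0.28. The leukocyte markers CD79A, CD68 and CD3E were at 0.43, 0.43 and 0.31 with overexpression and at -0.14, 0.08 and -0.32 with the inhibitor, where CD14 was also counted, at -0.07. The fibroblast markers counted went both ways, with DCN at 0.65, COL1A1 at -0.37 and PDGFRB at -0.02 with overexpression, and COL1A1 at 0.43, COL1A2 at 0.23 and PDGFRB at -0.21 with the inhibitor. The endothelial marker PECAM1 was at 0.22 and 0.06. All 4 arrays are labelled HCT116, a single line, so the markers of other cell types are not read here as numbers of such cells. The part of these markers in the values below was not tested.

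Junction and integrin genes were measured above the array median throughout, and mesenchymal and protease genes were mixed. All 8 junction genes with levels lay above the array median on all 4 arrays, as did all 9 of the integrin, laminin and CD44 genes with levels, 6 of 8 protease genes and 3 of 7 mesenchymal genes. The mesenchymal genes below the median on every array were CDH2, the N-cadherin gene, between 3.82 and 3.96, FN1, fibronectin, between 3.08 and 3.51 on the only probe set with levels, ZEB2 between 1.76 and 2.22, and TNC, the matrix protein tenascin C, between 2.55 and 2.70. The collagenase MMP1, between 2.68 and 3.13, and matrilysin, MMP7, between 3.72 and 4.09, were also below it. In the order vector, overexpression, scrambled RNA and inhibitor, CDH2 stood at 3.96, 3.93, 3.82 and 3.96, FN1 at 3.12, 3.51, 3.08 and 3.44, and ZEB2 at 1.76, 1.99, 2.22 and 1.84. TNC stood at 2.55, 2.65, 2.56 and 2.70, MMP1 at 2.68, 3.13, 2.92 and 2.76, and MMP7 at 4.09, 3.84, 3.72 and 3.84. FN1 and TNC were higher on both treated arrays than on their controls, and in the other 4 genes the treated arrays lay on opposite sides of their controls. Differences in these 6 genes lie in the dim range on the probe sets with levels and were not counted. FN1, ZEB2 and TNC also have probe sets without levels, so it is unknown whether those were dim.

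**Figure D1:**
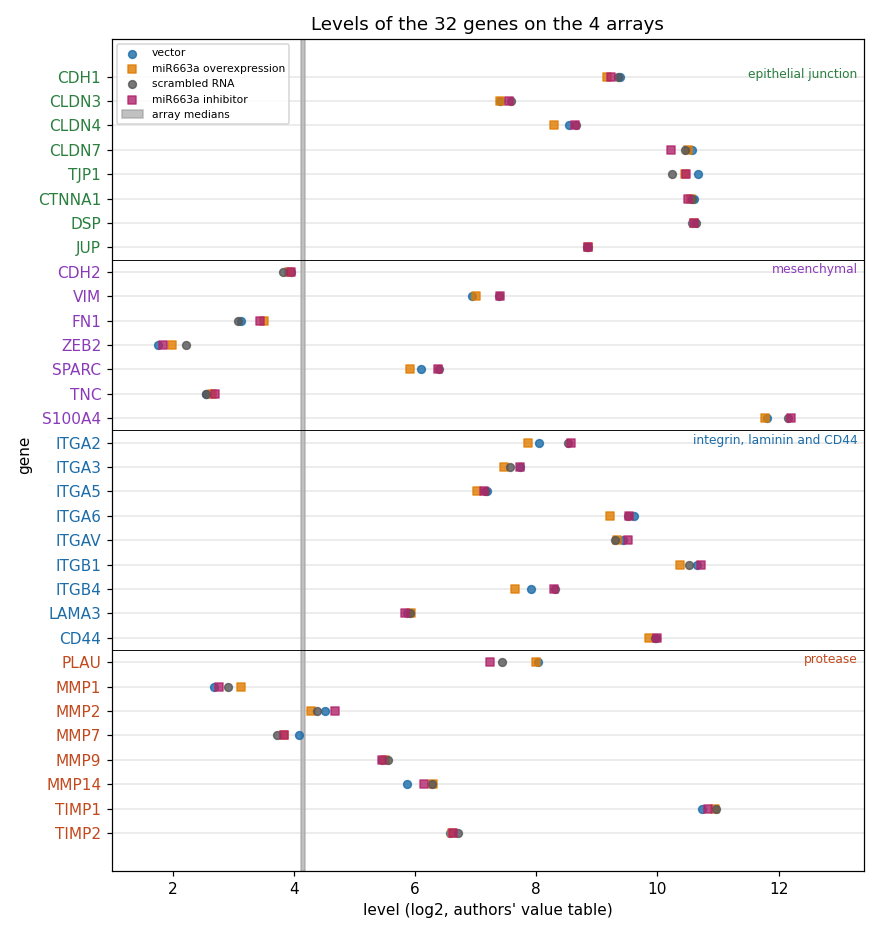
Levels of the 32 genes on the log2 scale of the authors' value table (x axis), 1 row per gene, with 1 point for each of the 4 arrays and a grey band for the array medians of 4.12 to 4.19. CDH2, FN1, ZEB2, TNC, MMP1 and MMP7 lie left of the band on every array, and levels are not comparable between genes, since probe sets differ.

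None of the 41 genes passed a 1.5-fold difference in either comparison where its level was counted. A gene was counted when it lay above the array median on both arrays, which held for 26 of the 41 in each comparison. With overexpression 0 of 26 were at least 1.5-fold higher or lower, where 2.58% of all 5507 genes counted were past that fold in either direction. With the inhibitor 0 of 26 passed it, against 0.766% of 5484 genes. By direction, 0.926% of all genes were past 1.5-fold higher and 1.65% lower with overexpression, and 0.529% higher and 0.237% lower with the inhibitor. At these background shares, fewer than 1 gene in a list of this size passes, so a count of 0 is near the background. Ratios of the 26 genes ran from -0.40 to 0.43 on the log2 scale with overexpression and from -0.23 to 0.30 with the inhibitor. For comparison, the log2 ratios of a pair of probe sets of the same gene differed with a standard deviation of 0.28 with overexpression and 0.27 with the inhibitor, over 1347 genes.

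**Figure D2:**
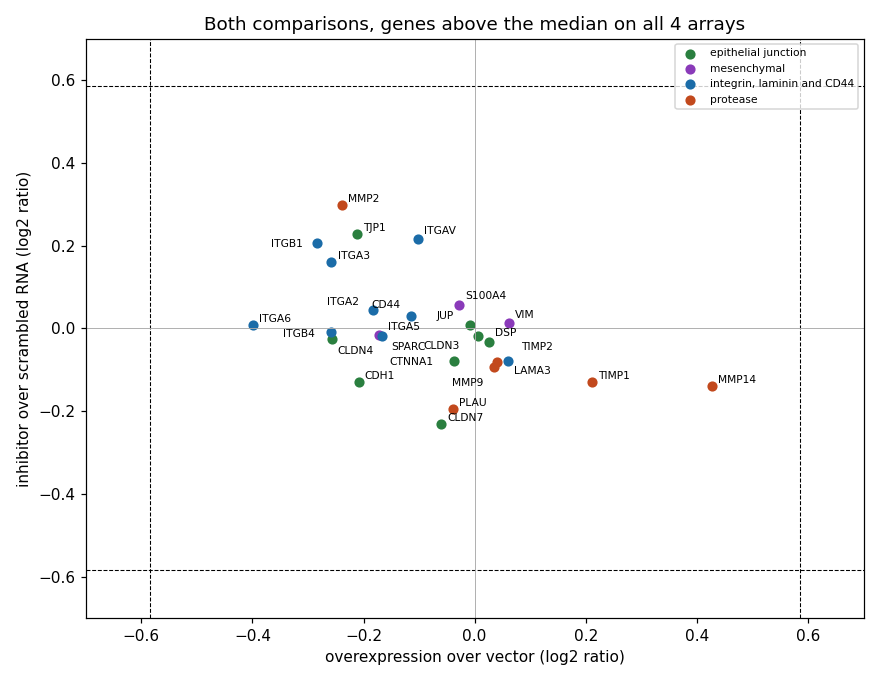
Log2 ratio of overexpression over vector (x axis) against log2 ratio of inhibitor over scrambled RNA (y axis) for the 26 genes above the array median on all 4 arrays, coloured by role, with dashed lines at 1.5-fold. All points lie inside the dashed lines, with MMP14 farthest right at 0.43, ITGA6 farthest left at -0.40 and MMP2 highest at 0.30.

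Among junction genes, E-cadherin was nearly even across the transfections. CDH1 at 16q22.1, which encodes E-cadherin, stood at 9.38 with vector, 9.17 with overexpression, 9.36 with scrambled RNA and 9.23 with the inhibitor. Both treated arrays were slightly below their controls, by log2 ratios of -0.21 and -0.13. A dim second CDH1 probe set, between 3.86 and 4.20, was on the other side in both comparisons, at 0.31 and 0.09.

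The other adherens junction and desmosome genes had the narrowest ranges among junction genes. JUP, plakoglobin, which serves both kinds of junction, stood at 8.86, 8.85, 8.84 and 8.85 in the order vector, overexpression, scrambled RNA and inhibitor. DSP, desmoplakin, which ties desmosomes to keratin filaments, stood at 10.57, 10.60, 10.63 and 10.60 in the same order. CTNNA1, alpha-catenin, which links cadherins to actin, stood at 10.60, 10.56, 10.58 and 10.50. The CTNNA1 probe set used has the suffix x, which marks probes that can also detect other sequences, and a second one stood at 9.67, 9.40, 9.53 and 9.55. The range over the 4 arrays was 0.01 for JUP, 0.06 for DSP and 0.10 for CTNNA1 on the log2 scale.

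Tight junction genes differed more. TJP1 at 15q13, the scaffold protein ZO-1, stood at 10.67 with vector, 10.46 with overexpression, 10.24 with scrambled RNA and 10.47 with the inhibitor. It was lower with overexpression, at -0.21, and higher with the inhibitor, at 0.23, and the vector and scrambled RNA arrays were its highest and lowest. The second TJP1 probe set, with ratios only, was also at -0.21 and at 0.06. OCLN, occludin, had ratios only, on 4 probe sets. In the authors' deposited table these read 0.677, 0.918, 1.05 and 0.750 for overexpression and 1.01, 1.02, 1.04 and 1.05 for the inhibitor, so that 3 of 4 were below 1 with overexpression and 4 of 4 were slightly above 1 with the inhibitor.

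The claudins, the strand-forming proteins of tight junctions, did not share a pattern. CLDN4 stood at 8.55 with vector, 8.29 with overexpression, 8.66 with scrambled RNA and 8.64 with the inhibitor, so that the overexpression array was the lowest of 4. CLDN7 stood at 10.57, 10.51, 10.45 and 10.22 in the same order, with the inhibitor array lowest, at a log2 ratio of -0.23. CLDN3 stood at 7.40, 7.40, 7.58 and 7.56 on a probe set with the suffix x, which was level in both comparisons, at 0.01 and -0.02. A second CLDN3 probe set stood at 6.12, 6.08, 6.55 and 6.14, and was at -0.41 with the inhibitor. CLDN1 had ratios of 1.01 and 1.18 with overexpression and 0.808 and 0.880 with the inhibitor in the authors' deposited table.

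Over the 8 junction genes counted, the median log2 ratio was -0.05 with overexpression and -0.03 with the inhibitor, beside -0.04 and -0.02 over all genes counted. With overexpression 6 lay below 0, where 59.6% of all genes did, and with the inhibitor 6 lay below 0, where 54.4% did. After quantile normalization 3 of the 8 lay below 0 with overexpression and the median was 0.06, so the direction of the group with overexpression depends on scaling.

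Other junction genes, a list of 27 that held none of the 41, were mostly lower with overexpression. Of the 11 counted, 10 lay below 0, where 59.6% of all genes did, with a median of -0.19. Past 1.5-fold were 0 of 11, where 2.58% of all genes were. After quantile normalization 9 of the 11 lay below 0, with a median of -0.09, and with arrays centred on their medians 10 did. Among them were PKP4, plakophilin 4, at -0.39 and DSC2, the desmosomal cadherin desmocollin 2, at -0.36. The other probe sets of DSC2 had a median of -0.33 and those of PKP4 of -0.15. With the inhibitor the median of the 11 was -0.04, and the farthest were ELF3, an epithelial transcription factor, at -0.27, CTNND1, p120-catenin, at -0.23, and OVOL1, an epithelial zinc finger factor, at -0.22.

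The 3 mesenchymal genes counted differed little within each pair of arrays and more between plasmid and RNA arrays. Their median log2 ratio was -0.03 with overexpression, with 1 of 3 above 0, and 0.01 with the inhibitor, with 2 of 3 above 0. VIM at 10p13, the intermediate filament vimentin, stood at 6.94 with vector and 7.0 with overexpression, and at 7.39 with scrambled RNA and 7.41 with the inhibitor. S100A4 at 1q21, a calcium-binding protein of motile cells, stood at 11.80, 11.78, 12.15 and 12.20 in the same order. SPARC, a collagen-binding matrix protein, stood at 6.09, 5.92, 6.40 and 6.39. In all 3 genes both RNA arrays were above both plasmid arrays, where 19.7% of all 5388 genes above the median on every array were. The other mesenchymal genes listed below were mixed: of 7 above the median on every array, 3 had both RNA arrays higher and 1 had both lower. The miR663a ratios of the 3 genes were between -0.17 and 0.06 on the log2 scale.

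The mean of the RNA arrays was above that of the plasmid arrays by 0.43 for VIM, 0.39 for SPARC and 0.39 for S100A4, or 1.35-fold, 1.31-fold and 1.31-fold. Kind of transfection, plasmid or single-stranded RNA, cannot be told apart here from any other difference between those pairs of arrays. A dim second VIM probe set, at 2.30, 2.81, 2.27 and 2.41, did not separate them. With the mean of both probe sets the VIM difference was 0.11, and with an offset of 64 added on the linear scale that of SPARC was 0.21. The overexpression ratio of that dim VIM probe set was 1.42 in the authors' deposited table.

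The repressors of the transition had little data. SNAI1 had 1 probe set, with ratios of 0.928 and 0.792 for overexpression and the inhibitor in the authors' deposited table, SNAI2 had 0.923 and 0.880, and TWIST1 had 0.789 and 1.06. None of these passed 1.5-fold, and their levels were not in the tables used here, so it is unknown whether they lay in the dim range. For ZEB1 the authors' deposited table gave 4 overexpression ratios, of 0.870, 0.817, 0.988 and 1.15, and 4 inhibitor ratios, of 1.14, 1.44, 0.980 and 0.853. ZEB2 had overexpression ratios in the authors' deposited table of 1.17, 1.62, 0.946, 0.987 and 1.22 and inhibitor ratios of 0.769, 0.808, 1.01, 1.05 and 0.718. The ZEB2 value of 1.62 was the only one of the 113 probe sets of the 41 genes past 1.5-fold with overexpression, where 3.53% of all 42450 probe sets were, 1.77% higher and 1.76% lower. With the inhibitor 0 of 113 passed, against 1.45% of all, 0.737% higher and 0.714% lower. The only ZEB2 probe set with levels reached at most 2.22, under every array median.

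FN1 kept to 1 side with the inhibitor. All 7 of its probe sets had inhibitor ratios above 1 in the authors' deposited table, from 1.01 to 1.29, while 3 of 7 were above 1 with overexpression, from 0.879 to 1.31. TNC had overexpression ratios of 1.07 and 1.20 and inhibitor ratios of 1.10 and 0.721, and CDH2 had 1.04 and 0.979 with overexpression and 0.840 and 1.10 with the inhibitor. The inhibitor ratios of TNC and CDH2 thus lay on both sides of 1.

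**Figure D3:**
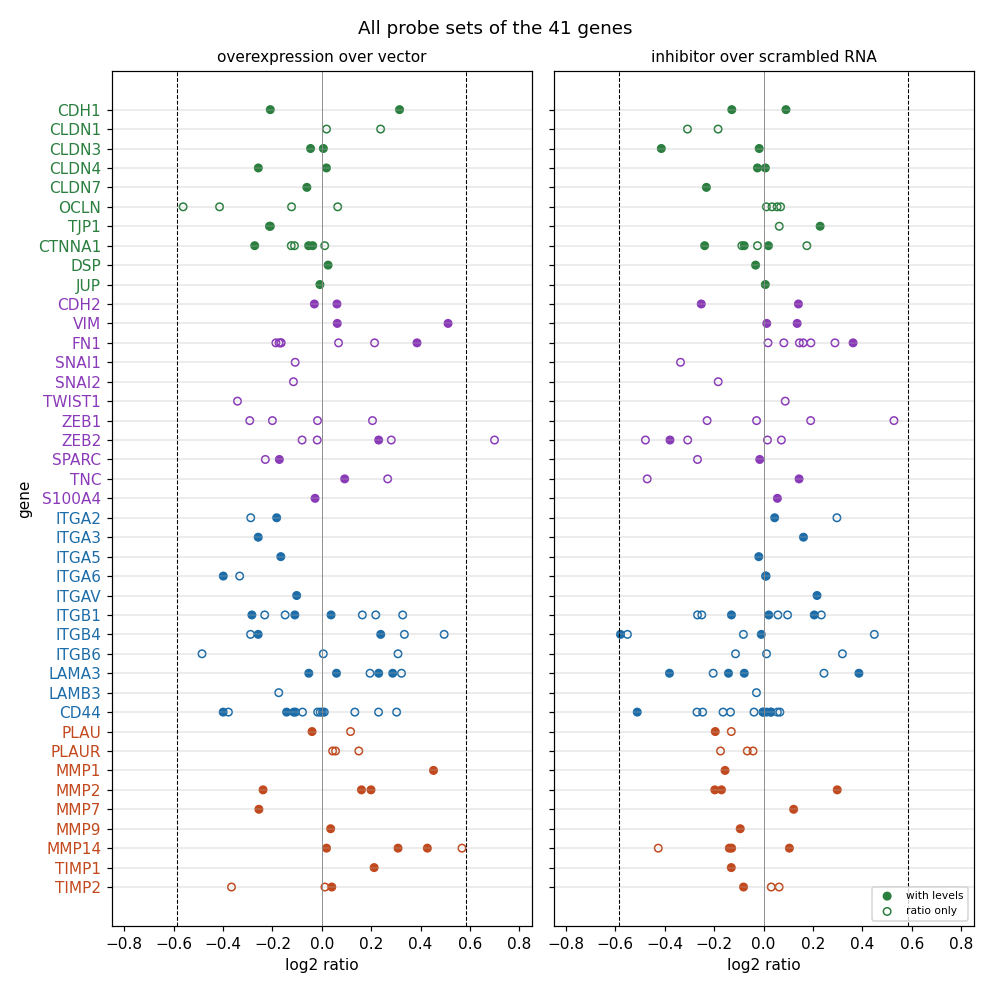
Log2 ratios of all 113 probe sets of the 41 genes in the authors' deposited table, with overexpression over vector on the left and inhibitor over scrambled RNA on the right, 1 row per gene, filled where levels were given and open where only ratios were, with dashed lines at 1.5-fold. One ZEB2 probe set on the left, at 0.70, is the only point outside the lines, and many genes have probe sets on both sides of 0.

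Among other mesenchymal genes, a list of 21, 2 of 8 counted passed 1.5-fold with overexpression, in opposite directions, where 2.58% of all genes counted did. SNAI3, a SNAI family factor, was 1.71-fold higher. It stood at 4.25 with vector, 5.03 with overexpression, 4.80 with scrambled RNA and 4.12 with the inhibitor. It has a single probe set, and its vector level lies close to the vector array median of 4.12. Its inhibitor level lies under the inhibitor array median of 4.16, so its inhibitor ratio was not counted. CALD1, the actin-binding protein caldesmon, was 1.69-fold lower, at 7.91, 7.15, 8.30 and 8.40 in the same order. Its other 10 probe sets had a median log2 ratio of -0.24 with overexpression. COL1A1, the type I collagen chain, stood at 7.85, 7.48, 7.62 and 8.05, lower with overexpression at -0.37 and higher with the inhibitor at 0.43, while its other 4 probe sets had medians of -0.01 and -0.11. COL1A2 was at 0.23 and MSN, the membrane linker moesin, at 0.18 with the inhibitor.

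Integrin subunits were mostly lower with overexpression on their brightest probe sets. The median of the 9 genes counted was -0.18 on the log2 scale, beside -0.04 for all genes counted, and 8 of 9 lay below 0, where 59.6% of all genes did. The exception was LAMA3, the laminin alpha 3 chain. The shift was smaller over more probes: in the authors' deposited table the median log2 ratio was -0.10 over all 11 genes of the group, beside -0.01 over all genes, and -0.05 over their 43 probe sets, beside -0.02 over all probe sets. In 7 of the 9, ITGA2, ITGA3, ITGA5, ITGA6, ITGB1, ITGB4 and CD44, the overexpression array was the lowest of all 4, against 34.7% of 5388 genes above the median on all arrays. For ITGB4 this held on its brightest probe set only in part of the data. Its 5 probe sets ran from -0.29 to 0.50 with overexpression, with a median of 0.24 and 3 above 0. With the inhibitor they ran from -0.58 to 0.45, so ITGB4 as a whole had no common sign. After quantile normalization 6 of the 9 lay below 0 and ITGAV, LAMA3 and CD44 above it, the median was -0.06 where that of all genes was 0.02, and the array was lowest in 6 of 9, against 25.3%. Ratios with overexpression also moved with signal: over 5 groups of genes from dim to bright, the medians were 0.05, -0.01, -0.07, -0.10 and -0.07. The part of signal in the group's value was not tested.

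ITGA6 at 2q31.1, the laminin receptor subunit alpha 6, was the lowest member. It stood at 9.62 with vector, 9.22 with overexpression, 9.52 with scrambled RNA and 9.52 with the inhibitor, which is 1.32-fold lower with overexpression. Its second probe set had an overexpression ratio of 0.794 and an inhibitor ratio of 1.01 in the authors' deposited table. Both ITGA6 probe sets were thus lower with overexpression and even with the inhibitor, and the other 3 arrays lay within 0.10 of each other.

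ITGB1 at 10p11.2, the beta subunit shared by most of the other integrins listed, stood at 10.65 with vector, 10.37 with overexpression, 10.52 with scrambled RNA and 10.73 with the inhibitor. It was lower with overexpression at -0.28 and higher with the inhibitor at 0.21. A second bright probe set was nearly level, at 9.97, 9.86, 9.97 and 9.99. Over all 8 ITGB1 probe sets, overexpression ratios ran from 0.822 to 1.25, with 4 above 1, so the gene as a whole had no common sign.

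The alpha partners differed in the inhibitor comparison. ITGA3, a laminin receptor subunit, stood at 7.72 with vector, 7.47 with overexpression, 7.57 with scrambled RNA and 7.73 with the inhibitor. ITGAV, the alpha subunit of receptors for vitronectin and fibronectin, stood at 9.44, 9.34, 9.30 and 9.51 in the same order. ITGA5, the fibronectin receptor subunit, stood at 7.19, 7.03, 7.16 and 7.14. ITGA3 and ITGAV were higher with the inhibitor, at 0.16 and 0.22, and ITGA5 was level, at -0.02. The inhibitor median of the 9 genes was 0.03, beside -0.02 for all genes counted, and 6 of 9 lay above 0, where 45.1% of all genes did.

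The collagen receptor subunit ITGA2 and the hemidesmosome subunit ITGB4 separated plasmid from RNA arrays. ITGA2 at 5q11.2 stood at 8.05 with vector, 7.87 with overexpression, 8.52 with scrambled RNA and 8.57 with the inhibitor. ITGB4 stood at 7.91, 7.65, 8.31 and 8.30 in the same order. Both RNA arrays were above both plasmid arrays in each gene, where 19.7% of all 5388 genes above the median on every array were. The means differed by 0.59 for ITGA2 and 0.52 for ITGB4, or 1.5-fold and 1.43-fold. A second ITGA2 probe set differed by 0.41, in a direction that the table does not give. A second ITGB4 probe set with levels, at 5.11, 5.35, 5.49 and 4.91, did not separate the arrays, and with the mean of both the ITGB4 difference was 0.24.

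CD44, the hyaluronan receptor, was the most heavily probed gene, with 13 probe sets. The one used stood at 9.98 with vector, 9.86 with overexpression, 9.97 with scrambled RNA and 10.00 with the inhibitor, and the next brightest at 9.71, 9.57, 9.68 and 9.69. Across all 13 the median log2 ratio was -0.02 with overexpression and 0.00 with the inhibitor to 2 decimals. A dim CD44 probe set, at 4.20, 3.80, 4.87 and 4.36, had the lowest ratios, -0.40 and -0.51. LAMA3 stood at 5.87, 5.93, 5.92 and 5.84, level in both comparisons. ITGB6, a subunit of an epithelial integrin that activates TGF-beta, had overexpression ratios of 1.24, 0.714 and 1.0 and inhibitor ratios of 0.924, 1.25 and 1.01 in the authors' deposited table, and LAMB3, the laminin beta 3 chain, had 0.886 and 0.980.

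Of the other integrin, laminin and focal adhesion genes, a list of 21, 12 were counted, 6 above and 6 below 0 with overexpression. LAMB1, the laminin beta 1 chain, was 1.54-fold lower with overexpression, at 7.71 with vector, 7.09 with overexpression, 7.75 with scrambled RNA and 7.93 with the inhibitor, and its other probe set was at -0.41. ITGB7, an integrin subunit of leukocytes, was at 0.52 and the tetraspanin CD151 at 0.35. With the inhibitor 0 of 12 passed 1.5-fold, where 0.766% of all genes did, and LAMB1 was at 0.18 and CD151 at -0.17. Their inhibitor median was -0.05.

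Protease and inhibitor genes leaned the other way. Over the 6 counted, the median log2 ratio was 0.04 with overexpression and -0.11 with the inhibitor. With overexpression 4 lay above 0, where 40.1% of all genes did, and with the inhibitor 5 of 6 lay below 0, where 54.4% did. With arrays centred on their medians, 2 of 6 lay above 0 with overexpression, so that side depends on scaling, while 5 of 6 stayed below 0 with the inhibitor under centring and quantile normalization. By the median of all probe sets in the authors' deposited table, 8 of the 9 genes were above 0 with overexpression, where 48.3% of all genes were, and 7 of 9 below 0 with the inhibitor, where 55.6% were. That count had no filter on dim genes, and the overexpression medians of TIMP2, MMP9 and PLAU were only 0.01, 0.04 and 0.04. MMP1 was dim on every array, and MMP2 had a median of 0.16 but -0.24 on its brightest probe set. Overexpression ratios of all genes also ran higher in the dimmest group, at 0.05, and the part of signal was not tested.

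MMP14 at 14q11-q12, the membrane-type metalloproteinase that activates MMP2, had the highest overexpression ratio of the 26 genes. It stood at 5.87 with vector, 6.30 with overexpression, 6.29 with scrambled RNA and 6.15 with the inhibitor, which is 1.34-fold higher with overexpression. The scrambled RNA array was as high, so the vector array alone was low. All 4 MMP14 probe sets were above 1 with overexpression in the authors' deposited table, from 1.01 to 1.48, and 3 of 4 were below 1 with the inhibitor, from 0.744 to 1.08. A second probe set with levels, at 5.88, 6.18, 5.83 and 5.93, had its overexpression array highest and the other 3 nearly even.

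TIMP1 at Xp11.3-p11.23, a secreted inhibitor of metalloproteinases, stood at 10.74 with vector, 10.95 with overexpression, 10.97 with scrambled RNA and 10.84 with the inhibitor. Like the first MMP14 probe set it was lowest with vector. TIMP2, which binds MMP14 and MMP2, stood at 6.58, 6.62, 6.71 and 6.63 in the same order, and its 3 probe sets had overexpression ratios of 1.03, 0.776 and 1.01 in the authors' deposited table.

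The gelatinases showed no common pattern. MMP9 stood at 5.46 with vector, 5.50 with overexpression, 5.55 with scrambled RNA and 5.46 with the inhibitor. MMP2 stood at 4.52, 4.28, 4.38 and 4.68 on its brightest probe set, close to the array medians, with log2 ratios of -0.24 and 0.30. Its other probe sets were below the median and on the opposite side of 0 in both comparisons, at 0.16 and 0.20 with overexpression and at -0.20 and -0.17 with the inhibitor. MMP1 was at 0.45 and MMP7 at -0.26 with overexpression, both in the dim range.

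PLAU at 10q24, the urokinase-type plasminogen activator, had the widest range of the 32 genes with levels. It stood at 8.03 with vector and 7.99 with overexpression, and at 7.43 with scrambled RNA and 7.24 with the inhibitor. Both RNA arrays were below both plasmid arrays, where 20% of all genes were, with means 0.68 apart on the log2 scale, or 1.60-fold. Between the control arrays alone PLAU was 1.52-fold lower with scrambled RNA than with vector, the only gene of the 26 past 1.5-fold there, where 2.38% of all genes were, 1.94% on the lower side. The second PLAU probe set, with ratios only, differed between the kinds of transfection by 0.88. Its miR663a ratios were 1.08 and 0.913, beside 0.973 and 0.873 for the first probe set. PLAUR, the urokinase receptor, had 3 probe sets, all above 1 with overexpression, from 1.03 to 1.11, and all below 1 with the inhibitor, from 0.886 to 0.971, in the authors' deposited table.

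Other proteases and inhibitors, a list of 27, gave 17 counted genes, of which 2 were past 1.5-fold higher with overexpression and 0 lower. Of all genes counted, 0.926% were past it higher and 1.65% lower. ADAM12, a membrane metalloproteinase, was 1.64-fold higher, at 5.14 with vector, 5.86 with overexpression, 5.36 with scrambled RNA and 5.68 with the inhibitor, with a median of 0.26 on its other 4 probe sets. MMP17, a membrane-type metalloproteinase, was 1.5-fold higher, at 5.40, 5.98, 5.68 and 5.52. TIMP3 was at 0.48, while its other 3 probe sets had a median of -0.43. With the inhibitor 0 of 17 passed, where 0.766% of all genes did. The sheddases ADAM10 and ADAM17 were both at 0.25 and ADAM12 at 0.32. The other probe sets of these genes had inhibitor medians of 0.01, 0.09 and -0.05, in the same order. CTSL was not found by its symbol. The median of the 17 was 0.08 with overexpression and -0.03 with the inhibitor.

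Both kinds of transfection were then set side by side over all 26 genes. Both RNA arrays lay above both plasmid arrays in 9 genes, where 19.7% of all genes did, and below them in 2, where 20% did, so 11 of 26 did not overlap, where 39.7% of 5388 genes did not, and the count is near the background. The genes above were CLDN3, CLDN4, DSP, VIM, SPARC, S100A4, ITGA2, ITGB4 and TIMP2, and those below were CLDN7 and PLAU. In size, ITGA2 and PLAU had means at least 1.5-fold apart, where 1.11% of all genes did.

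**Figure D4:**
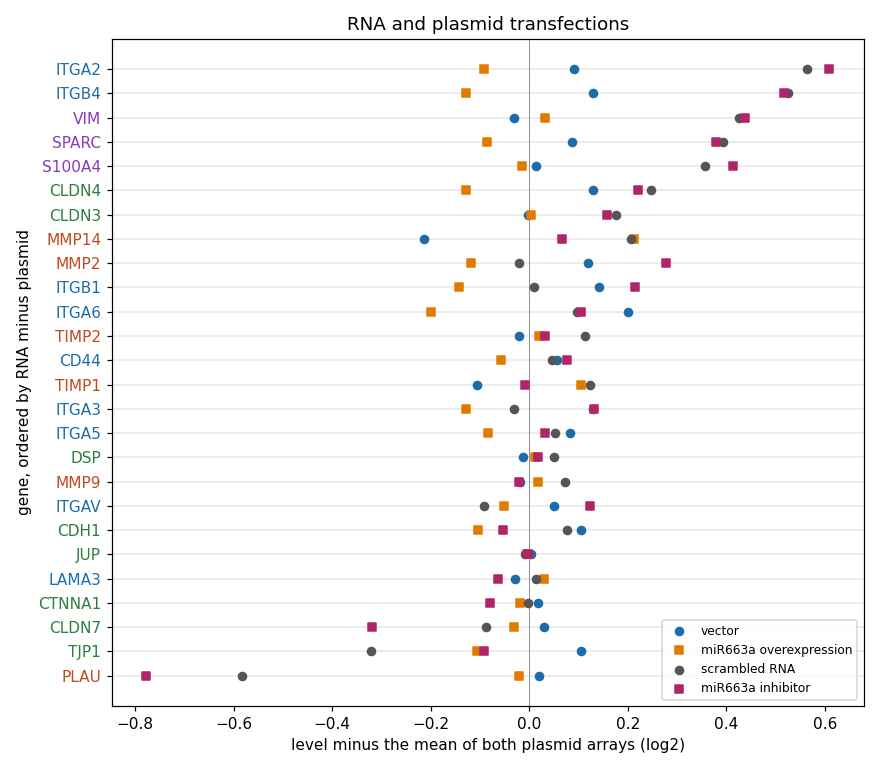
Level of each of the 26 genes on the 4 arrays minus the mean of both plasmid arrays (x axis, log2), ordered by the difference between the RNA and plasmid means. ITGA2, ITGB4, VIM, SPARC and S100A4 have both RNA arrays well to the right of both plasmid arrays, PLAU has them farthest to the left, and most other genes mix.

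For genes without levels, the size of that difference, without its direction, follows from both ratios and the authors' deposited score, which adds up the squared distances of a probe set's 4 log2 values from their mean. Where levels were given, sizes obtained this way were within 0.00124 of the measured ones on 12704 probe sets. SNAI2 at 8q11, the repressor SLUG, differed by 1.39 on the log2 scale, or 2.63-fold, and LAMB3 at 1q32 by 1.15, or 2.22-fold. Of all probe sets in the table, 0.0165% differed by more than SNAI2 and 0.0377% by more than LAMB3. The score does not give the direction. Each has 1 probe set, and the miR663a ratios of both were between 0.880 and 0.980. Of the 113 probe sets of the 41 genes, 7 differed by at least 1.5-fold between the kinds of transfection, where 0.956% of all did: both of PLAU, 2 of CD44 and 1 each of SNAI2, LAMB3 and ITGA2. TJP1, at 0.52 on its second probe set, and OCLN, between 0.26 and 0.45 on 4 probe sets, were below that fold. The 3 probe sets of PLAUR differed by at most 0.08, and SNAI1 by 0.25 and TWIST1 by 0.33.

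Opposite signs in both comparisons, the pattern that the study sought, were read without a size limit, since no counted gene passed 1.5-fold. Lower with overexpression and higher with the inhibitor were 10 of the 26 genes, TJP1, JUP, S100A4, ITGA2, ITGA3, ITGA6, ITGAV, ITGB1, CD44 and MMP2, where 32.8% of all genes were. Among these 10 were 6 of the 9 integrin, laminin and CD44 genes counted. The opposite signs were held by 7, CLDN3, DSP, LAMA3, MMP9, MMP14, TIMP1 and TIMP2, where 27% of all genes held them. Those 7 included 4 of the 6 genes counted in the protease group, MMP9, MMP14 and the inhibitors TIMP1 and TIMP2. Both ratios were below 0 in 8, where 27.3% were, and above 0 in VIM, where 12.1% were. These shares are near the background.

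Some genes held a sign on every probe set. Of the 26 genes with 2 or more probe sets in the authors' deposited table, TJP1, ITGA2 and ITGA6 were lower with overexpression and higher with the inhibitor on every one, where 6.4% of 10721 such genes were. For ITGA6 the inhibitor values were 0.01 and 0.01 on the log2 scale, so that sign is carried by a near-zero value. With overexpression alone 4 of 26 were lower on every probe set, where 25% were, and 5 were higher, where 17.9% were. With the inhibitor alone 5 were lower, where 21.5% were, and 6 were higher, where 14.4% were. The opposite pair of signs held for CLDN1 and PLAUR, where 6.54% of such genes did. ITGA2 had overexpression ratios of 0.881 and 0.819 and inhibitor ratios of 1.03 and 1.23, the widest of these pairs.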

How the data were processed

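Total RNA of 4 HCT116 transfections was measured on Affymetrix arrays, 1 per group. The authors deposited a value table of log2 levels for 16381 probe sets and a table of linear ratios and a score for 42450, which share 12704. Per the submitters' processing notes, MAS5 was used. The sources used here do not state the background correction, the normalization or the genome build. The deposited score was found to add up the squared distances of the 4 log2 values from their mean.

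Genes were named by the symbol in the ratio table, leaving out 961 probe sets with several genes and 59 whose symbol is a whole number. The 3677 probe sets found only in the value table were not used. The brightest probe set, by mean level, stood for a gene, which was counted where above the array median on both arrays. Differences were counted past 1.5-fold. Every gene with levels was named with its 4 levels. Of each list of other genes, the 3 farthest from 0 per comparison and those past 1.5-fold were named, except some that are not reported here. The members and lists were chosen with earlier results of these data known. The alternatives are given in the closing section. The comparison of RNA with plasmid arrays, the size taken from the score and the sign counts were added after seeing the data. The calculation was tested on simulated data. Python 3.11.15, numpy 2.4.6, pandas 2.3.3 and matplotlib 3.10.9 were used. The number of arrays limits the precision.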

Additional observations from a re-analysis of the deposited data

How the results depend on the processing

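No paired analysis was possible because each group has 1 array. The count of genes past 1.5-fold was 0 in both directions of both comparisons under all alternatives run: centring, quantile normalization, no filter, a stricter filter at the 60th percentile, an offset of 64, the mean of all probe sets, the authors' ratio table, a 2-fold threshold, the turned RNA arrays and, added after seeing the data, no probe sets with the suffix x. The medians lie near 0 and moved with the setting. With overexpression that of all counted genes of the list, 26 in the main setting, ran from -0.15 to 0.03. That of junction genes ran from -0.13 to 0.06 and of mesenchymal genes from -0.11 to 0.08. Quantile normalization gave 3 of the 10 medians the other sign, at 0.03 for all counted genes of the list, 0.06 for junction and 0.08 for mesenchymal genes with overexpression. The turned RNA arrays reverse the sign of all 5 inhibitor medians by construction. Centring gave -0.04 for the protease group with overexpression, no filter gave 0.06 for mesenchymal genes with overexpression, and the ratio table -0.06 for mesenchymal genes with the inhibitor. Centring moved the overexpression median of all genes from -0.04 to -0.12. The integrin group stayed below 0 with overexpression, between -0.26 and -0.06 over genes, and was at -0.05 over its 43 probe sets. Between RNA and plasmid arrays, 8 to 10 genes lay above and 2 to 3 below, and PLAU stayed between -0.68 and -0.52, while the mean of all probe sets took ITGB4 to 0.24 and VIM to 0.11 and the offset of 64 took SPARC from 0.39 to 0.21. Differences under about 0.3 on the log2 scale are as small as those between probe sets of a gene.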
